A study of Mus musculus with 16 samples.

Results

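The regions described here are 19337 stretches of H3K27me3 in mouse fibroblast lines that were 1100 to 4900 bp wide and shared no base with H3K4me3. They were chosen by their width and by the absence of H3K4me3, so neither is a finding. They made up 19.7% of the 98342 deposited H3K27me3 regions and held 35.7 of the 88.4 Mb that the list covered, or 40.4%. Another 429 regions of these widths, 2.17% of 19766, shared a base with H3K4me3 and were left out. Below they are called middle-width regions, beside 76446 narrow regions of under 1100 bp and 1330 broad regions of 5000 bp or more that also lacked H3K4me3.

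The study used chromatin immunoprecipitation followed by sequencing (ChIP-seq) on immortalized mouse embryonic fibroblasts. The experimental line was R26M2rtTA/+;TetOcre;Sdhcfl/fl, in which both copies of Sdhc were floxed, and the control line was R26M2rtTA/+;TetOcre;Sdhcfl/wt, with 1 floxed and 1 wild-type copy. Sdhc encodes a membrane anchor subunit of succinate dehydrogenase. Both lines carried the doxycycline-inducible Cre, both received doxycycline at 1 µg/mL, and both were collected at day 16. Each line gave 2 samples for H3K27me3, 2 for H3K4me3, 2 for succinyllysine (antibody PTM-401) and 2 of input, 16 samples in all. The labels name the cell lines and do not say whether each is a single clone or whether the 2 samples came from separate cultures.

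The deposited H3K27me3 list stands for 4 ChIP samples and gives positions alone. It is 1 observation, so the lines could not be compared, no test over samples exists, and the values below are counts and shares of this list. Read depth is unknown. Neighbouring regions are not independent, and the 95% intervals (exact Clopper-Pearson for shares, exact Poisson for the count on X) cover counting error only. No expression was measured. Of 25 fibroblast and matrix genes, 0 had any H3K27me3 within 1000 bp and 22 had H3K4me3. Of all 21887 protein-coding genes, 4392 had any H3K27me3 and 61.3% had H3K4me3. The label of the cells could not be checked further.

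H3K27me3 is trimethylation of lysine 27 of histone H3, placed by Polycomb repressive complex 2, whose catalytic subunit is Ezh2 or Ezh1. It marks genes kept silent in a cell type, most densely over the CpG-rich promoters of developmental regulators, from which it can spread along the chromatin. It is also found at lower levels over gene-poor and intergenic chromatin. On the inactive X chromosome of female cells it covers much of the chromosome.

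Few of these regions lay at a gene start, and the starts that did lie in one ranged from rich to poor in CG, the dinucleotide in which mammalian DNA is methylated. The 250 bases upstream of 4 such starts, taken from RefSeq promoters of build GRCm38.p6 (the coordinates of mm10), show that range. CG is in capitals and each is written 5′ to 3′ on the strand of its gene. They were picked after their values were seen: Tox2 starts in one of the 10 chains of regions described below, and the others lay in the widest middle-width region that held a start of their gene list.
Tox2 (chr2:163202877-163203126, plus strand): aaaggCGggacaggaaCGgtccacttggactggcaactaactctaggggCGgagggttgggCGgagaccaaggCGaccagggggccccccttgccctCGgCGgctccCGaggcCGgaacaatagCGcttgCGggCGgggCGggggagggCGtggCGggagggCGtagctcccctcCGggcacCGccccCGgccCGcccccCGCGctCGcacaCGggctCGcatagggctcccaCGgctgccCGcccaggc
Barhl1 (chr2:28912496-28912745, minus strand): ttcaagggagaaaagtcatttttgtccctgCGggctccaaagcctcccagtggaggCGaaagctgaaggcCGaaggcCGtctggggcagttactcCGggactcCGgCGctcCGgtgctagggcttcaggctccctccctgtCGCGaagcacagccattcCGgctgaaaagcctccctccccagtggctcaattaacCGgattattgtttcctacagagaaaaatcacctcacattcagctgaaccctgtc
Krt71 (chr15:101743098-101743347, minus strand): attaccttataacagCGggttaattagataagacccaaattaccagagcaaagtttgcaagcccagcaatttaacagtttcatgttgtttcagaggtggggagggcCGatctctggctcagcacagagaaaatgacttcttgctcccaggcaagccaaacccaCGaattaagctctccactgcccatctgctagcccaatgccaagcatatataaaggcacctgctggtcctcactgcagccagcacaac
Myh4 (chr11:67237562-67237811, plus strand): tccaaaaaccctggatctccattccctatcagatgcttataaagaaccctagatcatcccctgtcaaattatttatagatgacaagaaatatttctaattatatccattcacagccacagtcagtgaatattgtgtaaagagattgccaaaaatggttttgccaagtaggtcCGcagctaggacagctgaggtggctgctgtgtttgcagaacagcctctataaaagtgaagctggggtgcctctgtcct

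Tox2 encodes an HMG-box transcription factor, and its stretch held 27 CG with 75.2% GC, an observed over expected CG ratio of 0.765. The start lay in a region of 4300 bp. Barhl1 encodes a homeobox factor of the developing nervous system. The annotated start shown lies inside the gene, in a region of 4800 bp, with 12 CG and a ratio of 0.601. Krt71 encodes a keratin of the inner root sheath of hair. Its stretch held 3 CG with a ratio of 0.213, in a region of 4300 bp. Myh4 encodes a fast skeletal myosin heavy chain. Its stretch held 1 CG with a ratio of 0.0909, in a region of 2800 bp. Among these picked starts, the 2 of transcription factor genes had many CG, and those of the keratin and the myosin had few. They do not give a rule by kind of gene. Other starts of transcription factor genes in middle-width regions lay on both sides, with a ratio of 0.309 for Lhx8 and 0.665 for Pax1.

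On the X chromosome 1 middle-width region covered a cluster of microRNA genes, at chrX:52741701-52744500 between Gpc3 and Ccdc160. The cluster is a relative of the Mir17-92 family, whose members act on genes of growth and survival. The hairpins of Mir106a, Mir18b, Mir20b, Mir19b-2 and Mir92-2 lay wholly inside the 2800 bp region, and that of Mir363 shared 67 of its 75 bases. Mature sequences from RefSeq are shown 5′ to 3′ with the seed, bases 2 to 8, in capitals, because the seeds show which of these microRNAs belong together.
miR-106a-5p: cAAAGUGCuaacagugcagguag
miR-20b-5p: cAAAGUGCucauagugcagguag
miR-18b-5p: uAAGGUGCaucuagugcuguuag
miR-19b-3p: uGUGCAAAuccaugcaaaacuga
miR-92a-3p: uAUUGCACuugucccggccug
miR-363-3p: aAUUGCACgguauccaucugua

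The seeds of miR-106a-5p and miR-20b-5p were the same, and so were those of miR-92a-3p and miR-363-3p. Of 1005 microRNA hairpins in RefSeq, 17 shared a base with a middle-width region (1.69%), 13 with a narrow region (1.29%) and 10 with a broad region (0.995%). The 17 include the hairpins of the X cluster named above, which lay in 1 region. In the same order the classes covered 35.7, 38.3 and 11.5 Mb of the 2602 Mb of autosomes and X. The hairpin shares were not tested against that coverage. Mir208b, a microRNA of the heart and slow muscle encoded within Myh7, lay in a region of 1400 bp. Mir128-2, a microRNA known from neurons, lay in one of 1300 bp. Their mature forms are
miR-208b-3p: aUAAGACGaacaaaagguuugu
miR-128-3p: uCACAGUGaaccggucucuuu

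The widths piled up at the lower bound. The quartiles were 1200 and 2200 bp, with a median of 1500 bp. At the bounds themselves, 3528 regions without H3K4me3 were 1000 bp wide and left out, 2825 were 1100 bp, 62 were 4900 bp, and 43 were 5000 bp and left out. The counts therefore ran on across both bounds with no break. Among the first 10 of the 62 widest regions, in the order of the list, were those over Cfc1 and Prss40, Spata3, Asb18, Tspear, Onecut3 and Gsdma2, and those between Nfasc and Lrrn2, Prdm4 and Ascl4, and B4galnt2 and Igf2bp1. Onecut3 and Ascl4 encode transcription factors.

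By its midpoint, 56.4% of the middle-width regions were intergenic (55.7 to 57.1), 39.7% lay in the body of a protein-coding gene and 3.86% within 1000 bp of a gene end. Sequence outside the bodies of protein-coding genes made up 60.4% of the chromosomes. That value still includes the outer 1000 bp at gene ends, so a share by the definition used for the regions would be lower. The narrow regions were 61.5% intergenic and 2.85% at gene ends, and the broad regions 54.8% and 6.09%. Within the middle-width regions these shares varied little with width: from 1100 to 1500 bp up to 3100 to 4900 bp, the intergenic share went from 56.6% to 55.8%, and the share at gene ends was 3.63%, 4.21%, 3.90% and 4.24% in the 4 width classes. The intergenic share fell to 44.6% when all annotated genes, noncoding ones included, were used.

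Middle-width regions were spread unevenly over the chromosomes, and the X chromosome had few. The autosomes held 7.92 per Mb and X held 0.451, with 77 regions on 170.8 Mb, a 17.6-fold difference (X at 5.69% of the autosomal density, 4.49 to 7.11). Narrow regions differed far less, with 29.97 per Mb on autosomes and 21.0 on X, 1.43-fold. Broad regions numbered 1330 on autosomes and 0 on X. Of all H3K27me3 regions, 20.3% were middle-width on the autosomes and 2.10% on X, so X had H3K27me3 regions in number but nearly all of them were narrow. The other lists were also sparser on X, with 10.7 against 3.90 H3K4me3 regions per Mb and 4.45 against 0.386 succinyllysine regions per Mb. The sex and X copy number of the lines were not given in the sources used here, and the part that coverage of X had in this difference was not tested. Chromosome Y had 2 H3K27me3 regions in all and 0 of middle width.

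**Figure D1:**
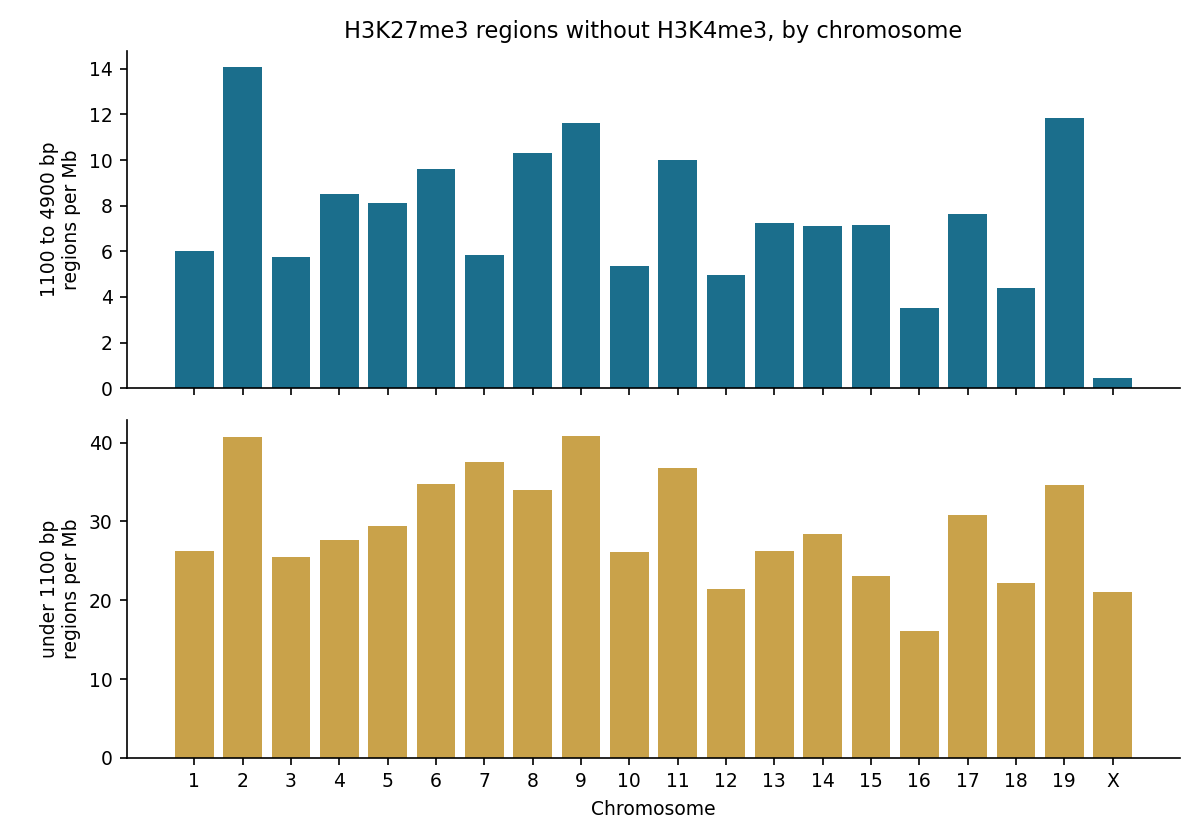
Middle-width H3K27me3 regions per Mb (upper panel) and narrow regions per Mb (lower panel) on each chromosome, 1 bar per chromosome from the single deposited list. The bar of X is at 0.451 in the upper panel, below every autosome, and at 21.0 in the lower panel, above chromosome 16.

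Among autosomes the density ran from 3.50 per Mb on chromosome 16 to 14.1 on chromosome 2, a 4.02-fold range around a median of 7.24. The narrow regions had a 2.54-fold range. Chromosome 2 alone held 2521 middle-width regions, 13.0% of them on 6.88% of the chromosome length. Chromosomes 19, 9, 8 and 11 followed with 11.8, 11.6, 10.3 and 10.0 per Mb. Chromosome 18 had 4.38 and chromosome 12 had 4.98. Chromosome 7 stood out in another way: it had 37.5 narrow regions per Mb, the third highest, but 5.86 of middle width, so that 13.4% of its H3K27me3 regions were middle-width against 24.9% on chromosome 2.

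The 77 regions on X lay in 23 of its 171 windows of 1 Mb, mostly in small groups at single loci. Gpr50, a receptor related to the melatonin receptors, had 3 in the gene or within 1000 bp of it, and they covered 66.8% of the gene. Irs4, an insulin receptor substrate, had 4, and Cdx4, a caudal homeobox factor, had 2. Fam90a1b had 6 and the meiosis gene Tex11 had 4. Around Esx1, a homeobox gene of placenta and testis, 4 lay between Fam199x and Il1rapl2. From Eras to Olfr1324, 258 protein-coding genes in a row over 42.5 Mb of X had 0 middle-width regions within 1000 bp, while 261 narrow regions lay there.

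Along the chromosomes the regions were clustered. Of 2615 windows of 1 Mb, 1384 (52.9%) held no middle-width region, against 15.0% without a narrow one. The densest 5% of windows, 131 of them, held 42.4% of the middle-width regions. The same share was 26.3% for the narrow and 67.3% for the broad regions. These shares depend on how many regions a class has, and the classes differ in number. The variance of the counts per window over their mean ran in the reverse order. It was 53.3 for narrow, 33.4 for middle-width and 6.05 for broad regions, so the classes are not ranked by clustering here. Windows with a broad region, 431 in all, held 68.0% of the middle-width regions at a mean of 30.5 per window, and the 2184 windows without one had a mean of 2.83. Within 100 kb, 48.6% of middle-width and 19.5% of narrow regions had a broad region.

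The fullest window, at 75 to 76 Mb of chromosome 2, held 137 middle-width regions over 273.3 kb and 13 broad ones. It lies on the far side of Mtx2 from the HoxD genes and holds Hnrnpa3, Nfe2l2 and Pde11a. Chromosomes 2 and 9 each had 3 of the 10 fullest windows. On chromosome 9 the window at 45 to 46 Mb (133 regions) holds Dscaml1, Il10ra and Scn2b, that at 42 to 43 Mb (120) holds Grik4 and Tecta, and that at 43 to 44 Mb (103) holds Trim29 and Nectin1. Chromosome 8 had the window of Sox1 and Tubgcp3 at 12 to 13 Mb (120) and that of Hydin and Calb2 at 110 to 111 Mb (102). The others held Drd1 and Unc5a on chromosome 13 (106), Il1a, Il1b and Pdyn on chromosome 2 (105), Adra2c and Hmx1 on chromosome 5 (101), and Ehf, Elf5 and Lmo2 on chromosome 2 (97). As background, some of the named genes are known from neurons (Grik4, Drd1, Pdyn) or epithelia (Trim29, Ehf, Elf5). Others are known from the inner ear (Tecta) or blood cells (Il10ra, Lmo2). The windows held 5 to 20 protein-coding genes each, and most are not named here, such as Sf3b3, Polr1b, Caprin1 and Tagln. The named genes therefore do not characterize the windows.

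More middle-width regions lay in windows with more genes. The 305 windows with no protein-coding gene had a mean of 0.125 regions, those with 1 to 4 genes 2.38, with 5 to 9 genes 8.47, with 10 to 19 genes 14.5 and with 20 or more 16.2. Narrow regions went from 6.90 to 21.5, 36.8, 41.9 and 38.1 over the same classes. The ratio of middle-width to narrow regions thus went from 0.0181 in windows with no gene to 0.424 in those with the most genes. H3K27me3 was present in gene-poor windows, but in narrow pieces.

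**Figure D2:**
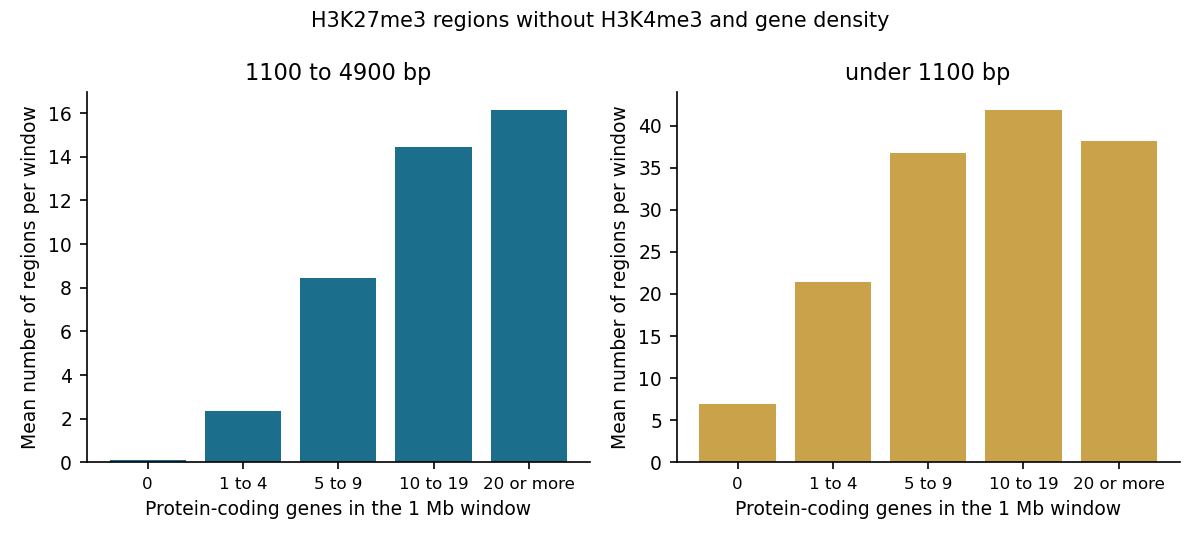
Mean number of middle-width (left) and narrow (right) H3K27me3 regions per 1 Mb window, by the number of protein-coding genes in the window. The left bars go from 0.125 to 16.2 and the right bars from 6.90 to a highest value of 41.9 at 10 to 19 genes.

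Many of the regions touched another H3K27me3 region, so their bounds did not mark the end of the mark. In 7152 of them (37.0%) no base lay between the region and its neighbour, and 12185 stood alone. The share was 19.3% for narrow and 56.9% for broad regions. The shares with a neighbour at most 1000 bp away were 88.0%, 57.8% and 97.4%. The median gap to the nearest H3K27me3 region was 100 bp, 1 step of the grid of the list, against 700 bp for narrow regions. Only 48 middle-width regions (0.248%) had no other H3K27me3 within 50 kb. A touching boundary is a place where the list starts a new region with no break in position, and the step that made these boundaries was not given in the sources used here.

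Touching regions formed 10140 chains in the H3K27me3 list, of which 4935 held a middle-width region. Pairs made up 3567 of these, triplets 966 and sets of 4 a further 279, and 1 chain had 12 regions. Of 6258 boundaries with a middle-width region on at least 1 side, each counted once, 59.0% had a narrow region on the other side, 31.3% another middle-width region and 8.10% a broad one. In 1820 chains at least 2 were middle-width, and 1207 chains were made of them alone. Wider members were in chains more often, from 31.2% at 1100 to 1500 bp to 50.2% at 3100 to 4900 bp.

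Joined end to end, 1260 of the chains spanned 5000 bp or more, and 764 of these held no region of that width. Those 764 chains held 1733 middle-width regions, which would count as parts of broad domains if touching regions were joined. After joining, 18103 stretches without H3K4me3 had a width of 1100 to 4900 bp. They comprised 12185 single regions that were members before, 3637 chains with a member and 2281 chains of narrow regions alone, and 2450 of the original regions left the class.

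The 2 chains with the most middle-width regions lay on chromosome 2. One, at chr2:129477801-129494900, ran 12 regions over 17100 bp inside F830045P16Rik, between the cytokine gene Il1b and the macrophage receptor gene Sirpa. It held 7 of middle width and 5 narrow ones, the narrowest 200 bp. The other, at chr2:103928401-103958700, ran 9 regions over 30300 bp up to the end of Lmo2, a transcriptional cofactor of blood cell development. It held 7 of middle width around a broad one of 8800 bp.

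By the number of middle-width regions, the next were chains of 7 regions at Jhy and Crtam on chromosome 9 and in the Kif2a to Zswim6 desert on chromosome 13, each with 6 of middle width. The chain in A230072I06Rik near Sox1, a neural transcription factor gene, had 6 regions over 11800 bp, all of middle width. At Krt76, a keratin gene of the palate, 5 flanked a broad region of 9800 bp. Chains of 5 made of middle-width regions alone lay at Phf24 (14400 bp), Hfm1 (12800 bp) and Tox2 (11800 bp). The Tox2 chain holds the CG-rich start printed above, close to the end of its first region. Acoxl had a chain of 6 with 5 of middle width.

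**Figure D3:**
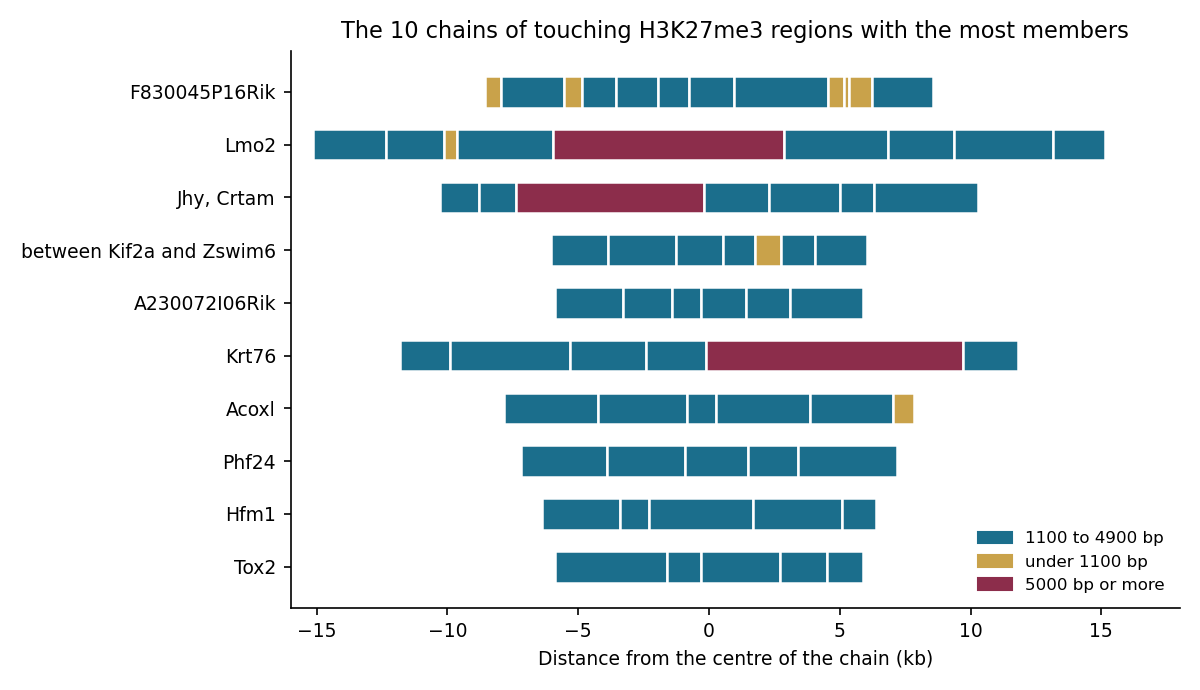
The 10 chains of touching H3K27me3 regions with the most middle-width regions, drawn to scale by distance from the chain's centre in kb, 1 row per chain named by its gene. Blue blocks are middle-width, gold narrow and red broad, and 3 chains hold a red block, that of Krt76 being 9800 bp.

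On a larger scale the regions gathered in neighbourhoods. Counting regions no more than 10 kb apart as 1 neighbourhood gave 5384, of which 2218 were single regions (11.5% of all). The 409 neighbourhoods with 10 or more held 6654 regions (34.4%) and had a median span of 53.6 kb. The fullest, at chr2:75239601-75595400 between Mtx2 and Hnrnpa3, had 95 regions that covered 53.2% of its 355.8 kb. The next were around Adra2c (66), in Dock3 (64), between Trim29 and Nectin1 (61) and in Dscaml1 (59). One at chr2:164196801-164335200 (39 regions, 58.8% covered) spanned the Svs genes, which encode the secreted proteins of seminal vesicle. Svs4 had 3 regions that covered 83.0% of the gene.

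Gene deserts, stretches of at least 500 kb without a protein-coding gene, held few of the regions. There were 655 over 771.7 Mb, 29.7% of the chromosomes, and they held 1078 middle-width regions (5.57%). The density was 1.40 per Mb inside and 9.97 outside, 7.14-fold. For narrow regions it was 15.2 and 35.3, 2.32-fold, and for broad regions 0.0518 and 0.705, 13.6-fold. The wider the class of region, the fewer of it lay in deserts, and within the middle-width regions the desert share went from 6.40% at 1100 to 1500 bp to 3.19% at 3100 to 4900 bp.

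Long deserts were emptier than short ones. Those of 500 to 750 kb had 5.12 middle-width regions per Mb, of 750 to 1000 kb 1.42, of 1000 to 2000 kb 0.450, and of 2000 kb or more 0.0583. In the last class 74 of 83 deserts had none, and the class held 14 regions in all. Of the 5 longest, 1 held 2 regions and the others, which included the 4.54 Mb from Pcdh20 to Pcdh9, held 0. In narrow regions the 4 length classes went from 33.7 to 19.9, 12.7 and 4.21 per Mb, a smaller fall.

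**Figure D4:**
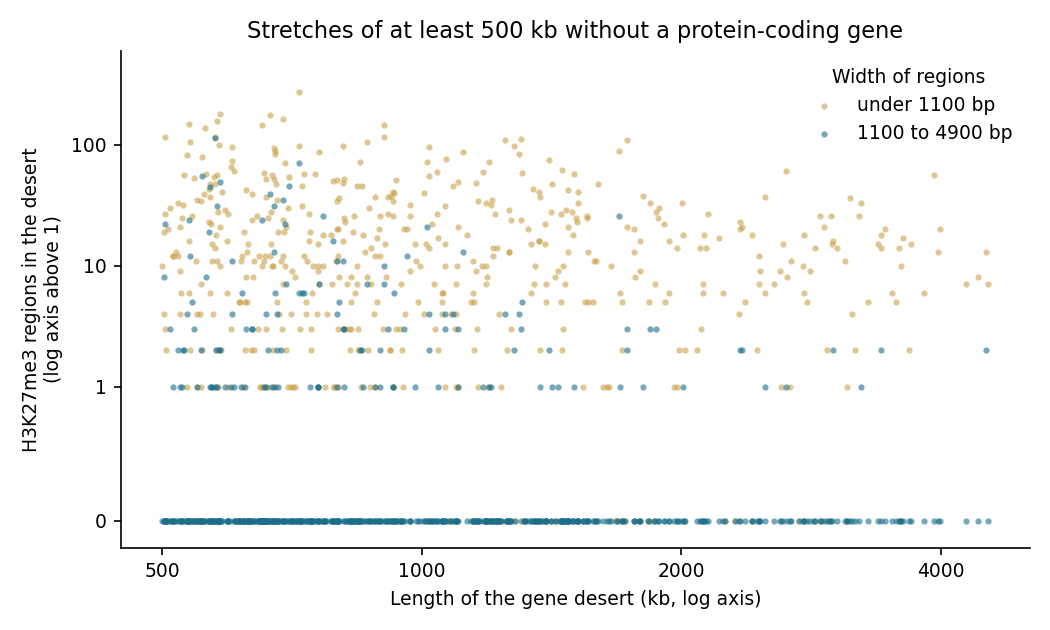
Number of H3K27me3 regions in each of 655 gene deserts (y axis, logarithmic above 1) against the length of the desert in kb (logarithmic x axis), with middle-width regions in blue and narrow ones in gold. The row of blue points at 0 is 520 deserts, and the highest blue point is the desert after Mtx2 with 113.

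A few deserts were exceptions. While 520 of 655 (79.4%) held no middle-width region and 46 held 1, the 27 with 10 or more held 808, or 74.95% of all in deserts. The 5 fullest held 334 (31.0%). The first ran from Mtx2 to Gm50595, chr2:74876749-75451973, with 113 regions over 38.8% of its bases. It lies on the far side of Mtx2 from the HoxD cluster. As background, regulatory landscapes of that cluster lie on both sides of it. Whether these regions belong to such a landscape was not tested. Of 39 Hox genes 1 had middle-width regions, as given below beside the share over all genes. The second, from Rragc to Pou3f1 on chromosome 4, held 71 middle-width and 273 narrow regions next to a POU factor gene of the nervous system and skin.

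The third lay between Irx3 and Irx5 on chromosome 8, 2 Iroquois homeobox genes of heart and limb patterning, and held 55. The fourth, from N4bp1 to Cbln1, a synaptic organizer gene of the cerebellum, held 49. The fifth, from Kif2a to Zswim6 on chromosome 13, held 46. With deserts defined by all annotated genes, 0.119% of the middle-width regions lay in one, since noncoding genes break up most of the stretches.

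Of 21887 protein-coding genes, 2121 had a middle-width region in the gene or within 1000 bp of it, a background of 9.69%. At the gene ends alone, within 1000 bp, it was 1279 genes or 5.84%. Most genes had few, with a median of 2, and 761 had 1, but 211 had 10 or more. Genes with such a region were longer (median 31.6 kb against 17.2 kb for all). The share with one went from 6.23% of genes under 10 kb to 23.2% of those of 300 kb or more, while at gene ends it went from 5.72% to 8.44%. An H3K4me3 region lay in or near 36.1% of the genes with a middle-width region and 61.3% of all genes, with the H3K4me3 region elsewhere in the gene by the rule of choice. A broad region lay in or near 440 of the 2121 (20.7%). H3K27me3 of any width lay in or near 4392 of all 21887 genes.

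The genes with the most were long, and several are known from neurons or sensory cells. Dscaml1, a cell adhesion gene of neurons, had 78 regions over 138.6 kb, 42.5% of the gene. Grik4, a kainate receptor subunit, had 67 (28.9%), and Dock3, a neuronal exchange factor, had 64 over 141.4 kb (41.6%). Myo3b, a myosin of hair cells and photoreceptors, had 60, Hydin, a component of motile cilia, had 59, and the calcium channel gene Cacna1d had 59. Rbfox3, the neuronal splicing factor NeuN, had 58. Frmd4a (55), Acoxl (50) and Spon1 (49) completed the 10. The share of the gene that the regions covered ran over these 10 from 17.5% in Frmd4a to 42.5% in Dscaml1.

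Gene lists differed widely from that background. The lists and their names were chosen with earlier results in view, gene length differs between them, and each percentage is a description. Of 68 developmental transcription factor genes, 33 (48.5%) had a middle-width region against 9.69% of all genes, and 25 (36.8%) had one at a gene end against 5.84%. Their median length was 8.29 kb, below that of all genes. Pax5, the B cell factor, had 40 regions over 78.5 kb, 42.2% of the gene, the testis factor gene Dmrt1 had 15 (32.1%) and Pax7, of muscle stem cells, had 10 (21.4%). Broad regions lay at 32 of the 68, and 19 had both.

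The Hox genes did not have this high share. Only Hoxd3 of 39 (2.56%) had middle-width regions, 2 of them, and none had one at a gene end. Over all genes these shares were 9.69% and 5.84%, and for genes under 10 kb 6.23% and 5.72%. The median length of the Hox genes was 3.74 kb. The list is small, and its low share was not tested against those values. H3K27me3 of any width lay at 24 of the 39, H3K4me3 at 29 and broad regions at 7. The H3K27me3 of the Hox clusters thus fell in other classes of region, and mostly outside the rule used here. Rhox homeobox genes on X had 0 of 33, with any H3K27me3 at 6.

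Signalling ligands were above the background. Of 19 Wnt genes 6 (31.6%) had a middle-width region: Wnt3 had 7 over 33.3% of the gene, Wnt3a 4 (26.2%) and Wnt9b 5 (19.4%). Of 22 fibroblast growth factor genes 6 (27.3%) did. Fgf9 had 7, and single regions covered 74.4% of Fgf8, a signal of limb and brain patterning, and 43.7% of Fgf20.

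Ion channels and neurotransmitter receptors, most of which act in excitable cells, had shares above the background of all genes in all 5 lists. Gene length was not matched here, and the share with a region rose with gene length, as given above. Of 20 sodium and calcium channel alpha subunit genes 10 (50%) had a middle-width region but 3 (15.0%) at a gene end, and the median gene length was 111.3 kb. Cacna1d had 59, Scn8a 31 over 34.8% of the gene and Cacna1a 30 over 21.0%. Of 93 potassium channel genes 42 (45.2%) had one, 31 (33.3%) at an end. Kcnn3 had 31 over 42.0% of the gene and Kcnma1 24 over 5.25%.

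Glutamate receptor genes had 11 of 26 (42.3%), led by Grik4 and by Grm4, with 20 over 34.2%. The median length in this list was 298.2 kb. Over all genes the share was 17.8% at 100 to 300 kb and 23.2% at 300 kb or more. Grid1, of 763.4 kb, had 4 over 0.865%. Monoamine and acetylcholine receptor genes had 18 of 50 (36.0%). The serotonin receptor genes Htr4 and Htr3b had 20 and 8, with 44.3% of Htr3b covered, and Adra1a had 8. GABA-A receptor genes had 3 of 19 (15.8%), with any H3K27me3 at 14. Their median length was 88.6 kb, and the share over all genes of 30 to 100 kb was 12.3%, so this list was near it. The channel and receptor lists thus ranged from 15.8% to 50%, and at gene ends from 10.5% to 33.3%.

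Clusters of genes of differentiated cells differed by kind. Of 53 keratin genes 24 (45.3%) had a middle-width region, 21 (39.6%) at an end, from 50 distinct regions in 4 loci. The regions covered 95.2% of Krt2, 79.9% of Krt76 and 71.0% of Krt71, the gene whose CG-poor start is printed above. Keratin-associated protein genes, which build hair with the keratins, had 9 of 56 (16.1%) from 13 regions, led by Krtap16-1 (73.9% covered). Cornified envelope genes, also of skin, had 0 of 35, with any H3K27me3 at 4. So the epidermal clusters did not carry the regions alike.

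Trace amine receptor genes, short chemosensory genes in 1 cluster on chromosome 10, had 7 of 15 (46.7%) from 9 regions, which lay largely beside the genes and covered 0.755% of their bases. In Taar8a the covered part was 12.9%, and in Taar3 and Taar8b it was 0. The larger chemosensory families were below the background. Of 1110 olfactory receptor genes 41 (3.69%) had a middle-width region and 188 (16.9%) any H3K27me3, against 4392 of all 21887 genes. Those with most bases covered were the neighbours Olfr287, Olfr286 and Olfr288 on chromosome 15, with 44.2%, 68.5% and 52.8%. Vomeronasal receptors had 3 of 230 (type 1, Vmn1r51 with 36.2% covered) and 2 of 123 (type 2), and bitter taste receptors 1 of 35, Tas2r144, whose 0.96 kb was covered whole. Mas-related receptors had 0 of 20. The bitter taste and Mas-related lists were too small to be told apart from a share of 6.23%.

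Liver and muscle genes, known from other cell types than fibroblasts, were above the background. Hepatocyte genes had 6 of 20 (30%): Afp 4 regions over 38.5%, Alb 3 over 42.0% and Tat 3 over 42.3%. Muscle genes had 7 of 22 (31.8%), with 6 in Myh7 and 3 in Myh8, and 6 over 3.02% of Ttn. These genes are not all separate places. Myh1, Myh4 and Myh8 lie together on chromosome 11, Myh6 and Myh7 on chromosome 14, and Alb and Afp on chromosome 5. The 22 muscle genes lay in 14 loci and the 20 hepatocyte genes in 16. Serpins of clades A and B, many of them liver genes, had 0 of 52, the prolactin family of placenta 0 of 26 with no H3K27me3 of any width, and kallikreins 1 of 26 (Klk1b4). Cytochrome P450 genes had 8 of 76 (10.5%), near the background, led by Cyp3a13 with 34.9% covered.

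Immune and defence genes were near the background: defensins had 8 of 70 (11.4%), with 47.9% of Defb23, 56.7% of Defb22 and 62.8% of Defb26 covered in 1 cluster on chromosome 2. Ms4a genes had 3 of 21 (14.3%), led by Ms4a20 with 4 regions, and killer lectin-like and C-type lectin receptors had 5 of 62 (8.06%), led by Clec4f. Clustered protocadherins, 14 of 57, owed this to 1 region of 1200 bp shared by the overlapping models of the alpha cluster on chromosome 18. The other protocadherins and classical cadherins had 6 of 35 (17.1%), with 22 regions over 40.5% of Cdh22.

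The lists of housekeeping and fibroblast genes had none. Cytosolic ribosomal protein genes had 0 of 77, oxidative phosphorylation genes 0 of 66 and fibroblast and matrix genes 0 of 25, with H3K4me3 at 74, 59 and 22. Zinc finger Zfp genes had 13 of 397 (3.27%), with H3K4me3 at 359. Zfp641 and Zfp811 had 61.3% and 46.5% of their length covered. In all, 8 of the 34 lists had no gene with a middle-width region. These lists held 20 to 77 genes, and their counts of 0 were not tested against the share over all genes.

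**Figure D5:**
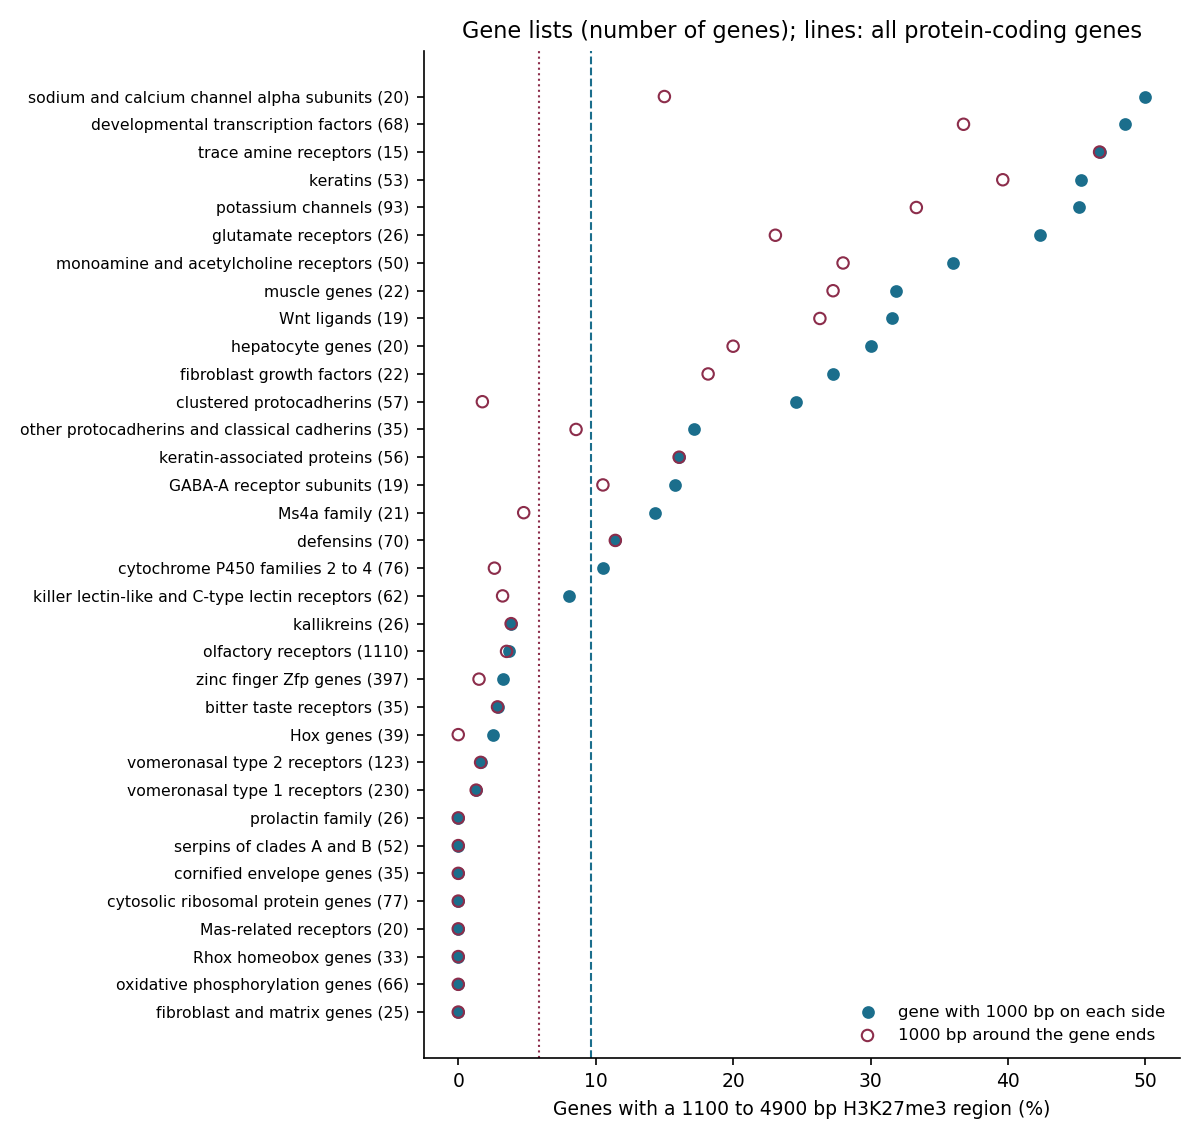
Percent of the genes of each of 34 lists with a middle-width H3K27me3 region in the gene or within 1000 bp (filled) and within 1000 bp of a gene end (open), with the number of genes in brackets. The lines are the values for all protein-coding genes, 9.69% (dashed) and 5.84% (dotted); lists run from 50% to 0.

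Unbroken runs of neighbouring genes with middle-width regions marked several clusters. The counts per run include regions between the genes. On chromosome 17 the run of 11 genes from H2-Ob to Notch4, chr17:34238905-34588543, held 58 regions over MHC class II and butyrophilin-like genes. In H2-Aa, a class II chain, 2 regions covered 72.0% of the gene, and in H2-Eb1 4 covered 47.2%. On chromosome 9 the run of 10 genes from Jaml to Dscaml1 held 126. Most of these were at 1 long gene, Dscaml1, which had 78, while Tmprss4 had 9 and Il10ra had 5. On chromosome 15 the 9 genes from Krt82 to Krt72 held 44. The 9 gene models from Ugt1a10 to Dnajb3 on chromosome 1 held 11, most of these models overlapping. On chromosome 10 the 8 genes from Rdh1 to Hsd17b6, of retinol and steroid metabolism, held 36, and on chromosome 4 the 6 from Vwa5b1 to Pla2g5, a phospholipase A2 cluster, held 40.

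Most genes had no such region, since 9.69% of all had one. Some of the longest runs of genes without one are given here, beside that on X above. The 256 genes of Y formed such a run. On chromosome 2 the 269 genes from Olfr987 to Chst1, largely olfactory receptors, had none within 1000 bp, with 20 middle-width and 82 narrow regions between the genes of the 7.28 Mb. On chromosome 7 the 179 genes from Clpb to Cnga4 had 1 middle-width region, between the genes, and 77 narrow ones in 3.75 Mb. The 164 genes from Isoc2a to Bicra on chromosome 7 had 0 middle-width and 28 narrow regions in 11.2 Mb. On chromosome 16, the autosome with the lowest density, the 154 genes from Tomm70a to Scaf4 spanned 33.2 Mb with 0 middle-width and 126 narrow regions.

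Starts of genes were seldom inside these regions. Of 18954 regions on the chromosomes in the promoter table, 341 (1.80%) covered an annotated start of a protein-coding gene, against 0.301% of narrow and 14.2% of broad regions. Wider regions have more room for a start. The median distance to the nearest start was 33.9 kb, against 57.0 kb for narrow and 22.3 kb for broad regions, and 51.6% lay downstream of that start. The median distance to H3K4me3, which is conditioned by the choice of regions, was 61.8 kb (quartiles of 24.4 and 118.9 kb), against 71.0 kb for narrow and 46.3 kb for broad regions, chosen without H3K4me3 in the same way. Within 1 kb of an H3K4me3 region lay 361 (1.87%), of which 46 touched it without sharing a base.

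The CG content of the starts lay between those of narrow and broad regions. Over 370 promoters of 336 genes that start in a middle-width region, the median GC content of the 250 bases upstream was 52.4% and the median CG ratio 0.319, and 65 (17.6%) had a ratio of 0.6 or more. The median ratio was 0.199 for 229 starts in narrow and 0.523 for 207 in broad regions. It was 0.763 for 11200 starts in H3K4me3 without H3K27me3 and 0.208 for 9137 in neither list. A ratio of 0.6 or more was found in 74.6% and 10.2% of these. The middle-width, narrow and broad regions were all chosen without H3K4me3, so the comparison with starts in H3K4me3 is conditioned by that choice. The letters TATAAA, on either strand, were in 15.7% of the promoters in middle-width regions, 23.6% in narrow, 13.0% in broad and 11.6% of all 21263. The promoter table held 79.6% of the genes with a middle-width region on its chromosomes, too few to check the property over those genes, so these values describe the promoters listed. The 4 promoters printed above had ratios from 0.0909 to 0.765.

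Succinyllysine regions seldom touched the middle-width regions. Of the 19337, 17 (0.0879%, 0.0512 to 0.141) shared a base with one, over 14.5 kb in all. That was 0.406 kb per Mb of middle-width region, against 0.462 for broad regions, of which 1 of 1330 touched one, and 2.73 for narrow regions, of which 0.654% did. Of the 429 middle-width regions left out for sharing H3K4me3, 43 (10.0%) did. The low share of the regions kept is therefore conditioned by the rule of choice, as are those of the narrow and broad regions. No share to be expected from the coverage of succinyllysine is given here. Among the 17, 5 lay between Chil3 and Chil6 on chromosome 3, a cluster of chitinase-like genes, and they were 1800 to 3900 bp wide. The others were scattered singly over 12 places, such as Tgm3, Hydin and B3galt5.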

How the data were processed

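The authors deposited positions alone, 1 list of regions per antibody on mm10, without heights or sample values. Alignment used Bowtie2 2.2.3, per the submitters' processing notes. The caller of regions, its settings and the pooling of samples were not given in the sources used here. Every one of the 98342 H3K27me3 starts ended in 01, so coordinates count from 1, include both ends and move in steps of 100 bp.

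Widths, shared bases, gaps and chains were computed with Python 3.11.15, pandas 2.3.3, numpy 2.4.6 and scipy 1.17.1. A region was placed in a class, desert or window by its midpoint. Chromosomes were measured between the outermost regions or genes. Genes were the 21887 protein-coding genes of RefSeq on GRCm38.p6, extended by 1000 bp. The interval code was tested on simulated data. No genome was used, so letters come from RefSeq tables of promoters, without chromosome 18, and of microRNAs.

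The members, the 34 gene lists and the alternatives were chosen with earlier results of these data known. Named genes were up to 3 per list with most bases covered, those at the 10 fullest chains and windows, the 5 fullest deserts, the 10 widest regions and the 10 genes with most regions. Genes of X loci, neighbourhoods, runs, microRNAs and succinyllysine places were added after their values were seen. Alternatives were other window sizes, desert lengths, gene sets, gaps, width limits and autosomes alone. The input samples and the difference between lines were not analysed here. Some genes that the rule names are left out of the text.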

Additional observations from a re-analysis of the deposited data

How the results depend on the processing

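Depth is unknown, so how many weak regions the list missed cannot be given. Leaving out a replicate could not be done, because the list has no values per sample. No paired analysis was possible because no result comes from a test over samples. The causes of the shifts below were not tested beyond what each setting changes by construction.

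The number of middle-width regions was 19766 without the H3K4me3 condition, 19003 with no H3K4me3 within 1000 bp and 18103 with touching regions joined, all within 1.5 times of 19337, and 5948 for those of at least 2000 bp. The intergenic share of 56.4% was 57.7% with gene windows of 500 bp, 52.9% with 2500 bp, 53.9% by any shared base and 44.6% with all annotated genes. The desert share of 5.57% was 14.2% for deserts of 250 kb, 0.703% for 1000 kb and 0.119% with all annotated genes. The density on X relative to autosomes, 5.69%, was 4.95% by covered bases and 10.3% as a share of the H3K27me3 regions.

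The share in chains, 37.0%, was 50.3% with gaps of up to 100 bp, 78.0% with 500 bp, 88.0% with 1000 bp, 98.4% with 5000 bp, and 18.6% for chains of middle-width regions alone. The share touching succinyllysine was 0.0414% by midpoint, from 0.0879%. The share of genes with a region, 9.69%, was 5.84% at gene ends, 8.94% in the gene body, 9.01% by midpoint and 5.73% for regions of at least 2000 bp. The densest 5% of windows held 51.4% with windows of 500 kb and 33.7% with 2000 kb, from 42.4%. Leaving out X changed the intergenic, desert and chain shares by less than their intervals. With gene ends alone the share was lower in 19 of the 34 lists and equal in 15.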
